A study of Mus musculus with 6 samples.

Results

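Interferon-stimulated genes and the interferon-inducible GTPases of the GBP and IRG families were described in livers of p14 KO mice. The 42 genes were a named set of genes induced by type I or type II interferon. Of these, 39 had a probe set that the array's annotation paired with that symbol alone, and 37 of the 10009 genes measured well enough to test were members. Where a gene had several probe sets, the brightest on average was used. The symbols of Isg15 and Tgtp1 stood only on probe sets shared with another gene, Ifi44 had none listed, and these 3 members have no value here. Mx1 and Mx2 lay below a log2 value of 4 on all 6 arrays, the level set here for a measured gene, and were not tested.

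Interferons are secreted proteins that warn cells of infection. Type I interferons act through a receptor that activates the kinases Jak1 and Tyk2, and a complex that includes Stat2 and Irf9 then binds interferon-stimulated response elements (ISREs) in gene promoters. Interferon gamma, the type II interferon, acts through a separate receptor and through gamma-activated sites (GAS) in promoters. In liver, Kupffer cells (the resident macrophages), endothelium and hepatocytes all respond to these signals.

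Affymetrix arrays measured total liver RNA from 6 male C57BL/6 mice at 6 weeks of age, with 1 array per mouse. The p14 KO group was 3 mice with a conditional knockout of p14 in the liver (KO 1, KO 2 and KO 3), and the control group was 3 mice of genotype p14 WT (WT 1, WT 2 and WT 3). p14 is encoded by Lamtor2 and belongs to the Ragulator complex of late endosomes and lysosomes. The labels do not give the Cre line that deleted the gene, and they do not say whether the controls carried a floxed allele. Lamtor2 measured 10.08, 10.19 and 10.11 on the KO arrays, against 11.32, 11.29 and 11.35 on the WT arrays. That is a difference of -1.19 with an adjusted p of 0.0104 in limma, a linear model with moderated variances fitted across all genes. Here and below p-values were adjusted over all 10009 genes by Benjamini-Hochberg, a gene was called at an adjusted p under 0.05, levels are log2 values, and differences are KO minus WT on that scale.

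KO 3 and WT 2 are described first. Over all genes KO 3 correlated with KO 1 and KO 2 at a mean r of 0.986 and with the WT arrays at 0.987. These values are too close to set KO 3 apart from either group. WT 2 carried skeletal muscle transcripts, shown by Mylpf, a muscle myosin light chain, at 12.41 there and between 3.92 and 4.15 on the other 5 arrays. The hepatocyte gene Alb lay between 16.16 and 16.24 on the KO arrays and between 16.22 and 16.28 on the WT arrays.

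Most of the 37 tested members were somewhat lower in KO livers, and no single member passed the threshold. The difference was below 0 for 35 of 37, against 58.4% of all genes tested, and the median was -0.33 against -0.04 over all genes. Xaf1, Gbp2 and Trim30a had the differences furthest from 0, and Oasl1 and Eif2ak2 were the members not lower in KO. At the adjusted threshold limma called 0 of 37 members, against 0.170% of all genes (0.150% lower and 0.0200% higher in KO), and the smallest adjusted p of a member was 0.22. At an unadjusted p under 0.05, 8 of 37 were lower in KO, where 10.1% of all genes were, and 0 were higher, where 4.32% of all genes were. A difference of at least 1.5-fold lower was seen in 10 of 37, where 5.22% of all genes had one.

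Centring each array on its median left 31 of 37 members lower, while the share over all genes was then 43.6%. The members' median was -0.17, -0.34 and -0.50 without KO 1, KO 2 and KO 3. It was -0.39, -0.25 and -0.40 without WT 1, WT 2 and WT 3. Its size thus moved with the mice counted, KO and WT alike. Over the same arrays 19 of 19 tested macrophage markers were lower in KO, at a median of -0.87. In RNA of whole liver, fewer cells of a type and less RNA per cell cannot be told apart, and the part of macrophages in the members' differences was not tested.

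**Figure D1:**
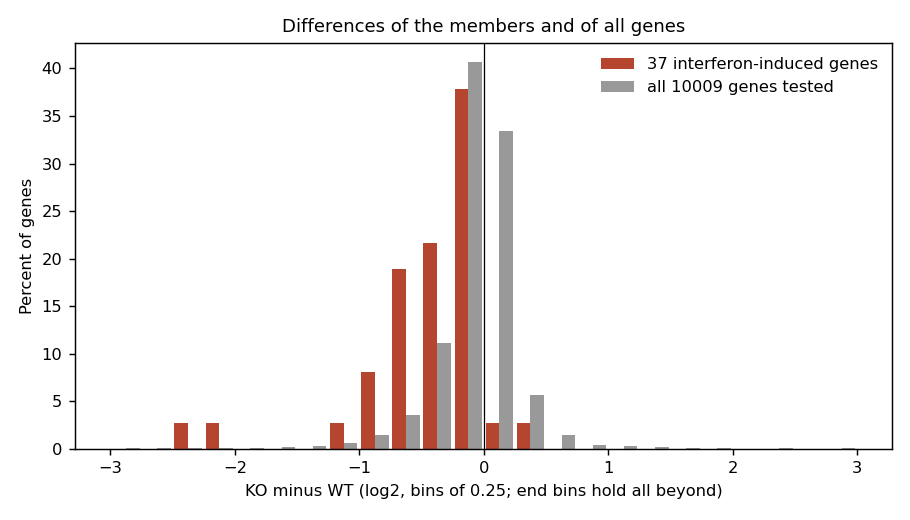
Share of genes (percent, vertical axis) by difference between KO and WT livers (log2, horizontal axis, bins of 0.25) for the 37 tested interferon-induced genes (red) and all 10009 genes (grey). The members lie to the left of all genes, with medians of -0.33 and -0.04.

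The KO mice did not contribute alike. KO 1 alone was the lowest of the 6 arrays for 27 of 37 members, where that held for 22.7% of all genes. KO 3 lay at or above the lowest WT array for 29 of 37, against 67.0% of all genes. The mean level of the 37 members was 8.18 on KO 1, 8.53 on KO 2 and 8.95 on KO 3, against 8.92, 9.22 and 8.90 on WT 1, WT 2 and WT 3. KO 3 therefore lay inside the WT range, above WT 1 and WT 3, and KO 1 and KO 2 lay below it. The top of that range was WT 2, the array that carried muscle transcripts. Acute-phase genes, picked with their values known, split the KO mice too. Saa2, a serum amyloid A protein, measured 15.69, 15.53 and 10.02 on the KO arrays, against 9.73, 9.38 and 8.49 on the WT arrays. Lcn2, an iron-sequestering protein, measured 14.33, 13.64 and 8.43 on the KO arrays, against 9.42, 8.81 and 7.70 on the WT arrays. KO 1 and KO 2 were far above the WT arrays in both genes and KO 3 near or among them, and their relation to the members was not tested. The groups did not overlap for 5 of 37 members lower in KO, a share near the 14% of all genes. They did not overlap for 0 members higher in KO, against 6.54% of all genes.

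**Figure D2:**
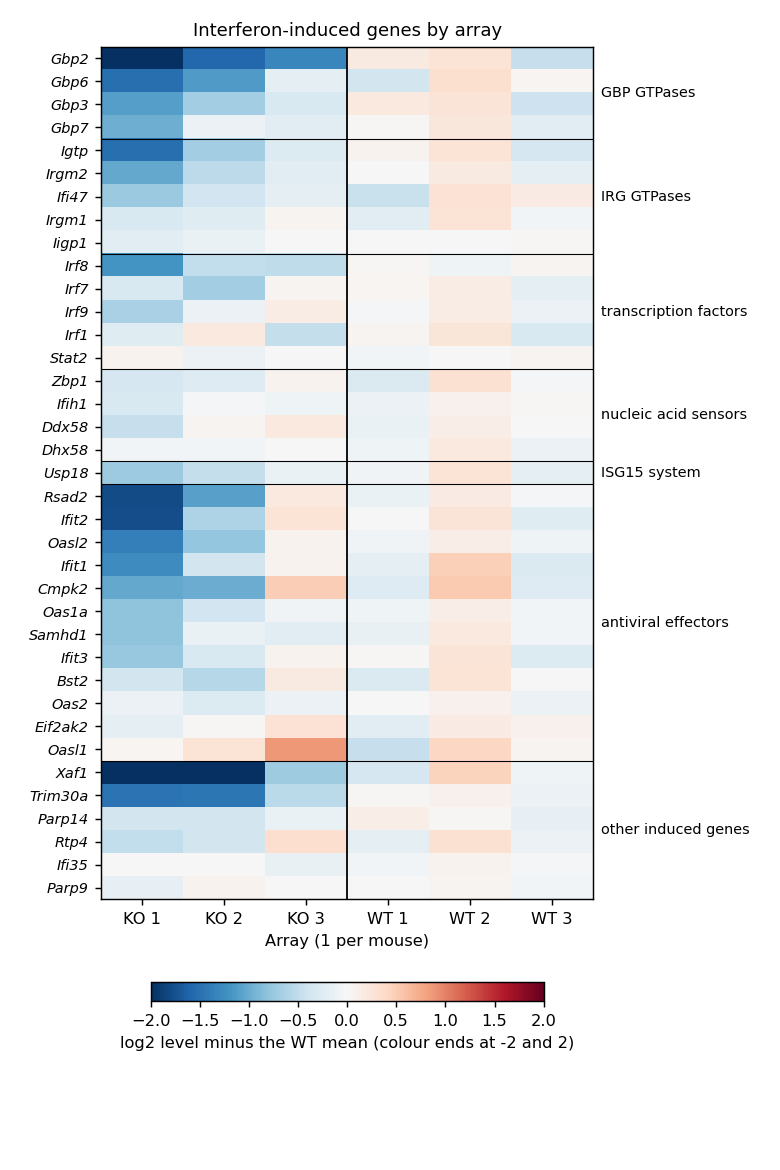
Log2 level of each tested member on each array minus its WT mean (colour, blue below and red above), with KO arrays left of WT arrays and genes grouped by role. Blue is densest on KO 1, where 27 of 37 members had their lowest value, and KO 3 lay at or above the lowest WT array for 29 of 37.

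The guanylate-binding proteins (GBPs) are large GTPases that interferon gamma induces and that attack the membranes around intracellular pathogens. All 4 lay lower in KO livers, at a median difference of -0.83. Gbp2 measured 5.23, 6.93 and 7.19 on KO 1, KO 2 and KO 3, against 8.68, 8.78 and 8.04 on WT 1, WT 2 and WT 3. Every KO array lay below every WT array, KO 1 far below, and the mean KO level was 24.2% of WT. The difference was -2.05 ± 0.55 (SE, n = 3 each; limma, adjusted p = 0.25). A further probe set of Gbp2 gave -2.14.

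Gbp6 measured 8.37, 8.74 and 9.68 on the KO arrays, against 9.52, 10.20 and 9.92 on the WT arrays. KO 3 lay within the WT values, so the groups overlapped, at a difference of -0.95 (limma, adjusted p = 0.338). Gbp3 measured 7.83, 8.23 and 8.63 on the KO arrays, against 9.12, 9.18 and 8.51 on the WT arrays. Here too only KO 3 reached the WT values, and the difference was -0.70 (limma, adjusted p = 0.335). Gbp7 differed by -0.43, with overlapping groups. In the RefSeq gene order Gbp7 and Gbp3 are neighbours, with no other protein-coding gene between them.

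The immunity-related GTPases (IRGs) guard against intracellular parasites and are among the strongest targets of interferon gamma in mice. All 5 tested IRG genes lay lower in KO livers, at a median difference of -0.44. Irgm2, a regulatory IRG protein, measured 9.72, 10.22 and 10.54 on the KO arrays, against 10.75, 10.93 and 10.56 on the WT arrays. The groups did not overlap, but KO 3 and WT 3 nearly met, and the difference was -0.58 ± 0.23 (SE, n = 3 each; limma, adjusted p = 0.336). Igtp, its relative also known as Irgm3, measured 10.26, 11.08 and 11.50 on the KO arrays, against 11.84, 12.05 and 11.44 on the WT arrays. KO 3 just passed WT 3, and the difference was -0.83 (limma, adjusted p = 0.346).

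Ifi47, an effector IRG protein, measured 9.69, 10.04 and 10.25 on the KO arrays, against 9.99, 10.72 and 10.59 on the WT arrays. Only KO 1 lay below all WT arrays, at a difference of -0.44 (limma, adjusted p = 0.43). Irgm1 and Iigp1 differed by -0.17 and -0.12. Igtp and Irgm2 are next to each other in the genome and had differences of -0.83 and -0.58.

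**Figure D3:**
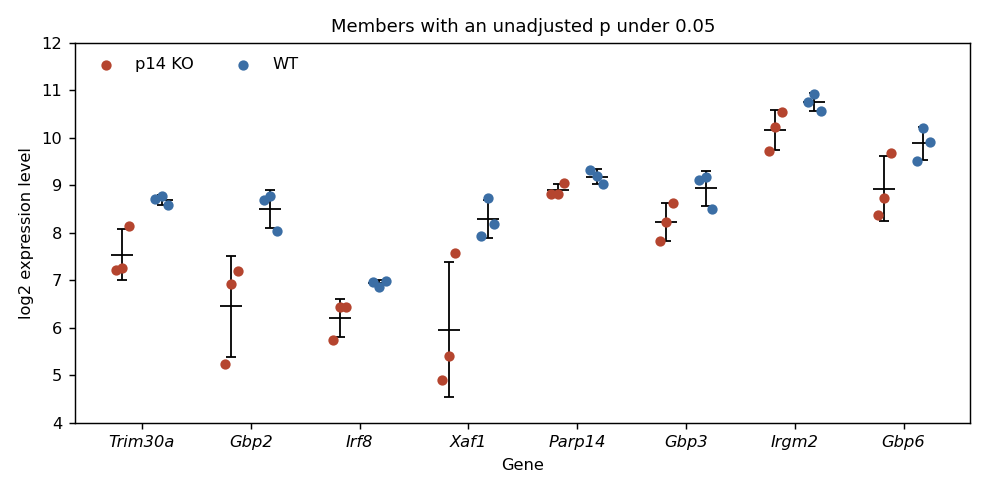
Log2 level (vertical axis) of the 8 members with an unadjusted p under 0.05, in p14 KO (red, left) and WT (blue, right); points are mice, bars the mean and SD (n = 3). In Trim30a, Gbp2, Irf8, Xaf1 and Irgm2 all KO points lie below all WT points.

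Promoters were searched for the letters of the 2 interferon response motifs. RefSeq windows of 300 bases on GRCm38.p6, from 250 before to 50 after an annotated start, were at hand for 31 of the 42 members, in 37 windows. The ISRE core was searched as GAAA, any 2 bases and GAAA on both strands and GAS as TTCNNNGAA, which reads alike on both strands. The ISRE core was in the windows of 18 of 31 members, or 51.4% of the 37 windows, against 3.44% of all 32851 windows. GAS was in those of 12 of 31 members, or 32.4% of the 37 windows, against 8.3% of all. The motifs overlapped in 1 of the 37 windows. The set was chosen as interferon-induced, so these shares describe it and test nothing.

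The windows of the 4 tested members with the largest differences among those with a motif are shown 5′ to 3′, with motif letters in capitals.
Gbp2 (chr3:142620413-142620712, plus strand): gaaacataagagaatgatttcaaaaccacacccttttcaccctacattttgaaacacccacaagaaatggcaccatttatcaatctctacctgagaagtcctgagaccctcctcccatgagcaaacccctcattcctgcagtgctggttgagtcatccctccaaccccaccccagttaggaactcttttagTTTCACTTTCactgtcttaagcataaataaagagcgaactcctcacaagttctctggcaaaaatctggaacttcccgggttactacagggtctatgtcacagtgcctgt
Trim30a (chr7:104465144-104465443, minus strand): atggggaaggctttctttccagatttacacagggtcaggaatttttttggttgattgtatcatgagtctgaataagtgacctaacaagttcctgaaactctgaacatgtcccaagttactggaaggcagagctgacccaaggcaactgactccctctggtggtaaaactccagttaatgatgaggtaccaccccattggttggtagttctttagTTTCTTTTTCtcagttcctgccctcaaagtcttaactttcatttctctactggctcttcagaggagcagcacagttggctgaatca
Rsad2 (chr12:26456403-26456702, minus strand): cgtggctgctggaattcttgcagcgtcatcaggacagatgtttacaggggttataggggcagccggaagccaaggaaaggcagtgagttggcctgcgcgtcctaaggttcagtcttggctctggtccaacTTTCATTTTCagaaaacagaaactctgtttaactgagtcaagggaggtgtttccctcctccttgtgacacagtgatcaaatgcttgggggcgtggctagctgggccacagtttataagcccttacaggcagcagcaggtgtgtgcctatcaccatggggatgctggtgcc
Igtp (chr11:58199306-58199605, plus strand): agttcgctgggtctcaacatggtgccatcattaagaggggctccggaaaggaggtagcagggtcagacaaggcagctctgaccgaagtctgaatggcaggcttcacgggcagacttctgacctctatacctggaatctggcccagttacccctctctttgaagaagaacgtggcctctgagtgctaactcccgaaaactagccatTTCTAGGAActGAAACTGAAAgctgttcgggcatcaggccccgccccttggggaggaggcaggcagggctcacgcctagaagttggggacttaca
The ISRE core began 59 bases before the start of Gbp2, 36 before that of Trim30a, 120 before that of Rsad2 and 34 before that of Igtp. Trim30a had a further window, for another start, in which the core began 2 bases after the start. The Igtp window also held GAS, beginning 45 bases before the start.

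In 3 member windows the ISRE core began 11 bases after the beginning of GAS, an arrangement found in 5 of all 32851 windows. All 3 belong to IRG genes. They were picked after the motif positions were seen, and 40 bases of each are shown, GAS first and then the ISRE core in capitals.
Igtp (chr11:58199501-58199540, plus strand): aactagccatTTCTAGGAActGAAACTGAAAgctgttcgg
Irgm2 (chr11:58214892-58214931, plus strand): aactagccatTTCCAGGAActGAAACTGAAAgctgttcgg
Tgtp1 (chr11:48992305-48992344, minus strand): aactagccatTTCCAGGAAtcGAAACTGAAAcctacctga
Members with and without an ISRE core had nearly the same median difference. The 16 tested members with the core had a median of -0.42, against -0.41 for the 12 with a window but no core. For GAS the medians were -0.41 with it (11 members) and -0.44 without it (17 members). Xaf1, with the difference furthest from 0, had neither motif in its window.

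Among the transcription factors of the pathway, all 5 lay lower in KO livers, at a median difference of -0.21. Irf8, a factor of macrophages and dendritic cells that interferon gamma induces, measured 5.74, 6.44 and 6.43 on the KO arrays, against 6.96, 6.86 and 6.99 on the WT arrays. The groups did not overlap, and all 3 KO mice were low. The difference was -0.73 ± 0.20 (SE, n = 3 each; limma, adjusted p = 0.255), and a further probe set gave -0.55.

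Irf7, the amplifier of type I interferon production, measured 8.76, 8.36 and 9.11 on the KO arrays, against 9.10, 9.21 and 8.87 on the WT arrays. KO 3 lay among the WT values, at a difference of -0.31 (limma, adjusted p = 0.501). Irf9, the DNA-binding partner of Stat2, measured 7.94, 8.47 and 8.74 on the KO arrays, against 8.57, 8.74 and 8.48 on the WT arrays. Its difference was -0.21 (limma, adjusted p = 0.647) and 0.01 without KO 1. Irf1 and Stat2 differed by -0.18 and -0.02.

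The sensors of foreign nucleic acid had a median of -0.10, with all 4 slightly lower and all overlapping. Ifih1, the sensor of long double-stranded RNA called MDA5, measured 10.21, 10.49 and 10.43 on the KO arrays, against 10.39, 10.60 and 10.53 on the WT arrays. Zbp1, a sensor of left-handed nucleic acid that triggers necroptosis, measured 6.81, 6.89 and 7.22 on the KO arrays, against 6.86, 7.46 and 7.13 on the WT arrays. In Ifih1 and Zbp1 alike only KO 1 lay below all WT arrays, at differences of -0.13 and -0.17. Dhx58, the regulator of these RNA sensors called LGP2, measured 5.43, 5.42 and 5.47 on the KO arrays, against 5.39, 5.68 and 5.37 on the WT arrays. That is a difference of -0.04, which turned to 0.03 when arrays were centred on their medians and to 0.06 without WT 2. Ddx58, which encodes RIG-I, differed by -0.07. For these 4 sensors limma gave adjusted p-values of 0.565 to 0.871.

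Usp18, which removes the ubiquitin-like protein ISG15 from its targets and damps the type I receptor, measured 9.87, 10.12 and 10.45 on the KO arrays, against 10.52, 10.87 and 10.40 on the WT arrays. KO 3 lay just above WT 3 and the other KO arrays below all WT arrays. The difference was -0.45 ± 0.19 (SE, n = 3 each; limma, adjusted p = 0.354).

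The antiviral effectors included 14 members, of which 12 were tested, 10 lower and 2 higher in KO, with a median of -0.39. Oas1a, a synthetase that activates RNase L, measured 7.42, 7.84 and 8.15 on the KO arrays, against 8.14, 8.36 and 8.16 on the WT arrays. Oasl2, of the same family, measured 5.82, 6.41 and 7.26 on the KO arrays, against 7.12, 7.33 and 7.11 on the WT arrays. Oas2 measured 6.46, 6.30 and 6.46 on the KO arrays, against 6.58, 6.66 and 6.46 on the WT arrays. KO 3 reached the WT values in each of these 3 genes, at differences of -0.41, -0.69 and -0.16 (limma, adjusted p = 0.386, 0.411 and 0.416). In Oas2 this was not particular to KO 3, since KO 1, KO 3 and WT 3 all read 6.46.

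Rsad2, which encodes viperin, an enzyme that makes a chain-terminating nucleotide, differed widely among the KO mice. Rsad2 measured 7.67, 8.37 and 9.66 on the KO arrays, against 9.32, 9.62 and 9.44 on the WT arrays. KO 1 and KO 2 lay well below the WT arrays and KO 3 above them all, so the SD was 1.01 in KO and 0.15 in WT. The difference of -0.89 (limma, adjusted p = 0.437) was -1.44 without KO 3 (adjusted p = 0.0811). Cmpk2, a nucleotide kinase encoded next to Rsad2, differed by -0.51, at 4.64, 4.68 and 6.16 on the KO arrays and 5.41, 6.20 and 5.41 on the WT arrays. KO 1 and KO 2 lay below the WT arrays and KO 3 just below WT 2.

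The Ifit proteins bind foreign RNA ends and block translation. Ifit2 measured 4.93, 6.09 and 6.98 on the KO arrays, against 6.69, 6.95 and 6.46 on the WT arrays. KO 3 again lay highest, at a difference of -0.70, and Ifit1 and its family member Ifit3 differed by -0.52 and -0.33 (limma, adjusted p = 0.541 to 0.545 for the 3 genes). The per-array values of Rsad2, Cmpk2, Ifit2 and Oasl1 fall outside the naming rule, and these genes were picked with their values known.

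Samhd1, a nucleotide hydrolase that limits retroviruses, and Bst2, the membrane tether tetherin, differed by -0.38 and -0.25. Oasl1, which limits Irf7 translation in mice, went the other way. Oasl1 measured 6.97, 7.20 and 7.79 on the KO arrays, against 6.47, 7.34 and 6.99 on the WT arrays, at a difference of 0.39 with overlapping groups (limma, adjusted p = 0.555). Its neighbour in the genome is Oasl2, at -0.69. Eif2ak2, the RNA-activated kinase PKR, differed by 0.04. Mx1 lay between 2.36 and 2.97 on the KO arrays and between 2.97 and 3.52 on the WT arrays, and Mx2 was 2.33 on every array, levels too low to compare.

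**Figure D4:**
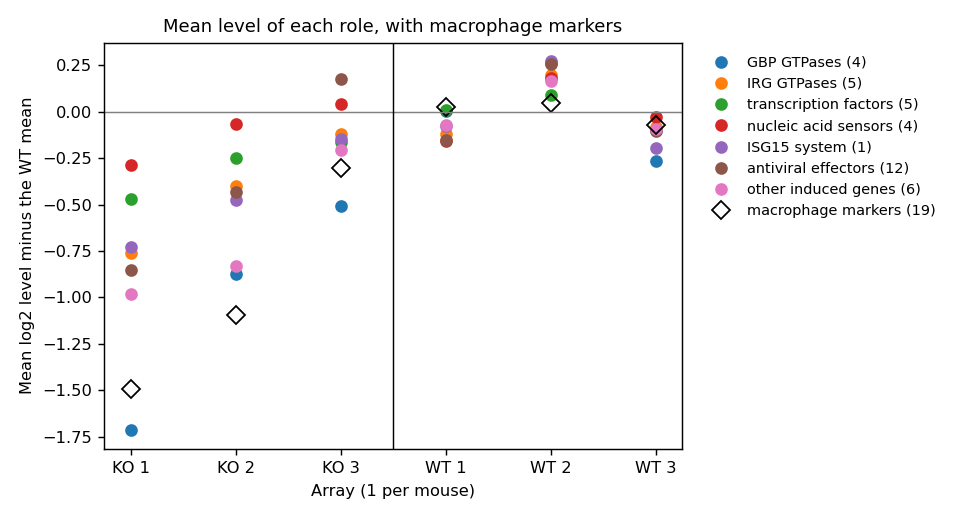
Mean log2 level of the tested members of each role on each array, minus the WT mean (number of genes in brackets), with 19 macrophage markers as open diamonds. The GBP mean was 7.41, 8.25 and 8.62 on KO 1, KO 2 and KO 3, against 8.86 to 9.39 on the WT arrays, and the antiviral effectors of KO 3 (8.05) lay inside the WT range of 7.72 to 8.13.

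The remaining induced genes held both of the members that limma called once KO 3 was left out. Trim30a, a tripartite-motif ligase that restrains inflammatory signalling, measured 7.21, 7.25 and 8.15 on the KO arrays, against 8.71, 8.78 and 8.58 on the WT arrays. All KO arrays lay below all WT arrays, with KO 3 between KO 1 and KO 2 and the WT arrays. The mean KO level was 45.0% of WT, a difference of -1.15 ± 0.27 (SE, n = 3 each; 95% interval -1.82 to -0.49; limma, adjusted p = 0.22). A further probe set of Trim30a gave -0.79. Without KO 3 the difference was -1.46 and the limma adjusted p was 0.0158.

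Xaf1, a partner of the apoptosis inhibitor XIAP, measured 4.90, 5.41 and 7.57 on the KO arrays, against 7.94, 8.73 and 8.19 on the WT arrays. KO 1 and KO 2 were far below the WT arrays and KO 3 just below them. The difference was -2.33 ± 0.71 (SE, n = 3 each; limma, adjusted p = 0.285), and -3.13 without KO 3 (limma, adjusted p = 0.0336). With KO 3 left out, limma called 2 of 37 members lower in KO, where 1.14% of all genes were. The groups then did not overlap for 23 of 37 members lower in KO, against 23.5% of all genes. KO 3 had the highest mean of the members among the KO arrays, so leaving it out lowers the KO mean.

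The direction for Xaf1 holds for this probe set only. Its further probe set measured 8.64, 9.09 and 8.50 on the KO arrays, against 3.08, 3.90 and 4.15 on the WT arrays, where 1 of 3 reached 4. All 3 KO mice were high on it, KO 3 included. Since 2 of 3 WT arrays lay below the limit of 4, the KO level is given as at least 25.9-fold higher, with WT arrays below 4 counted at 4. When all 17316 probe sets past the filter were tested, limma called 1 of 57 member probe sets, this one, where 0.0231% of probe sets were called higher and 0.0635% lower in KO. It passed the filter through its KO arrays and WT 3 alone, so that call is not independent of the filter. Averaging both probe sets turned the sign for Xaf1, to 1.35 (limma, adjusted p = 0.263). The parts of the gene that the probe sets read are not given in the sources used here, so the overall Xaf1 transcript level has no settled direction.

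Among all 20 further probe sets of members past the filter, 17 had the direction of the probe set used. Besides Xaf1, the exceptions were both further probe sets of Ifi35, at 0.13 and 0.09, where the one used gave -0.04.

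**Figure D5:**
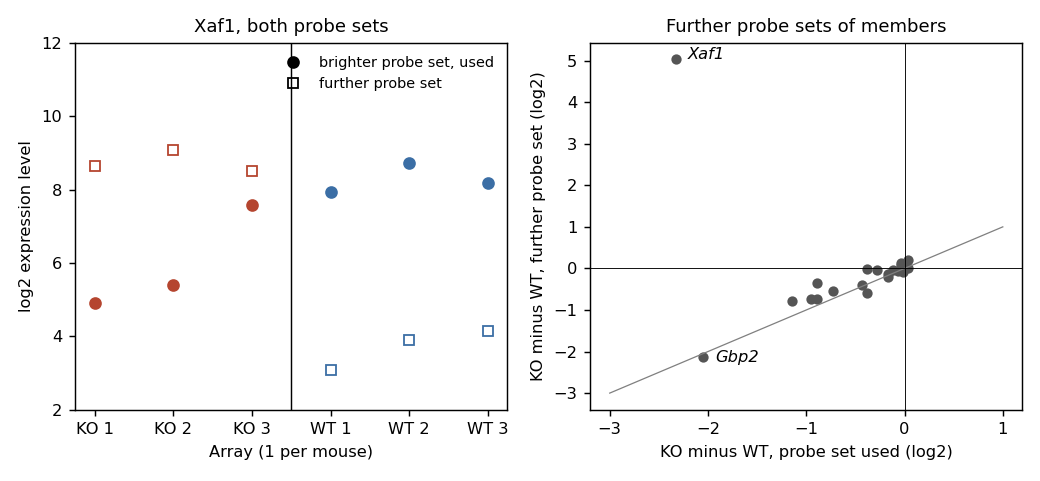
Left, log2 level of both Xaf1 probe sets on each array (filled, used; open, further; red, KO; blue, WT). Right, the difference from each of the 20 further member probe sets against that from the probe set used (log2), with the line of equality. Xaf1 is the far exception, at a measured 5.03 (WT below 4 on 2 of 3 arrays) against -2.33, and Gbp2 agrees at -2.14 and -2.05.

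Parp14, a mono-ADP-ribosyltransferase, measured 8.82, 8.82 and 9.04 on the KO arrays, against 9.32, 9.20 and 9.02 on the WT arrays. KO 3 just passed WT 3, at a difference of -0.28 (limma, adjusted p = 0.334). Rtp4, Ifi35 and Parp9, the partner of the ligase Dtx3l, differed by -0.17, -0.04 and -0.03. For the 5 members with separate groups (Trim30a, Gbp2, Irf8, Xaf1 and Irgm2) the exact two-sided permutation p was 0.1, the smallest that 3 against 3 arrays can give. Of all genes 14% were lower in KO with separate groups, a share near that of the members.

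Members that interferon gamma mainly induces (the GBPs, the IRGs, Irf1 and Irf8) had a median of -0.58, with 11 of 11 tested lower. The other 26 had a median of -0.27, with 24 lower. Their means on the arrays also differed in how far KO 3 lay from WT. For the interferon-gamma group the mean was 8.99, 9.56 and 9.77 on the KO arrays, against 10.05, 10.30 and 9.94 on the WT arrays, so the groups were apart. For the other members it was 7.83, 8.10 and 8.60, against 8.44, 8.76 and 8.46, and KO 3 lay within WT. The difference between these divisions was not tested, since their genes were chosen with results of these data known.

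Of the interferon genes, Ifna2 lay above 4 on every array, at 6.55, 6.30 and 6.26 on the KO arrays and 6.13, 6.26 and 6.26 on the WT arrays. The groups overlapped, at a difference of 0.15 (limma, adjusted p = 0.499). KO 3, WT 2 and WT 3 all read 6.26, so a value above 4 does not establish that Ifna2 was expressed. Ifnb1, Ifna4 and Ifng lay below 4 on all 6 arrays, and Ifna1 had the tied value 4.24 on each, which is no measurement of a difference. Of the 7 interferon and receptor genes tested 0 were called by limma, with 1 at an unadjusted p under 0.05, where 10.1% of all genes were lower and 4.32% higher at that level. That was Ifngr1, the ligand-binding chain of the interferon gamma receptor, at 8.09, 8.34 and 8.63 on the KO arrays, against 8.76, 8.72 and 8.69 on the WT arrays. The groups did not overlap (difference -0.37; limma, adjusted p = 0.329). Ifnar2, a chain of the type I receptor, measured 11.42, 11.49 and 11.29 on the KO arrays, against 11.26, 11.24 and 11.20 on the WT arrays, with KO higher on all arrays (difference 0.16; limma, adjusted p = 0.373). Ifngr2 and Ifnar1 differed by -0.01 and 0.06.

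Downstream of the receptors, limma called 0 of 10 tested kinases, other IRFs and inhibitors, with 2 lower at an unadjusted p under 0.05 (10.1% of all genes). Pias1, a SUMO ligase that damps interferon signalling, measured 8.22, 8.45 and 8.37 on the KO arrays, against 8.71, 8.63 and 8.71 on the WT arrays (difference -0.33; limma, adjusted p = 0.228). Tyk2 measured 7.50, 7.67 and 7.82 on the KO arrays, against 7.97, 7.90 and 7.96 on the WT arrays (difference -0.28; limma, adjusted p = 0.304). In both genes KO was lower with no overlap. In the upstream sensing pathway 0 of 10 were called by limma and 1 was lower at an unadjusted p under 0.05, a share near the 10.1% of all genes. Trim25, the ubiquitin ligase of RIG-I signalling, measured 11.24, 10.86 and 11.40 on the KO arrays, against 11.78, 11.78 and 11.85 on the WT arrays, without overlap (difference -0.64; limma, adjusted p = 0.215). Tlr4, the endotoxin receptor, measured 4.14, 3.97 and 4.31 on the KO arrays, against 4.31, 4.81 and 4.31 on the WT arrays, close to the limit of 4 and meeting at 4.31 (difference -0.34; limma, adjusted p = 0.407).

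A further list of 50 interferon-induced genes outside the set had 36 tested, 29 lower and 7 higher in KO, with a median of -0.19. Limma called 0 of these, and 7 of 36 were lower at an unadjusted p under 0.05, where 10.1% of all genes were. Trim34a, a tripartite-motif protein, had the smallest p of that list, at 7.30, 7.44 and 7.90 on the KO arrays, against 8.54, 8.74 and 8.78 on the WT arrays. All KO mice were low, KO 3 included (difference -1.14 ± 0.17, SE, n = 3 each; limma, adjusted p = 0.125). Trim21, an intracellular antibody receptor, measured 7.92, 8.15 and 8.28 on the KO arrays, against 9.07, 8.56 and 8.68 on the WT arrays (difference -0.65; limma, adjusted p = 0.24). Cxcl10, the T-cell attractant that interferon gamma induces, measured 6.06, 6.60 and 7.65 on the KO arrays, against 8.61, 8.64 and 7.71 on the WT arrays (difference -1.55; limma, adjusted p = 0.282). In Trim21 and Cxcl10 the groups did not overlap either, though KO 3 and WT 3 nearly met for Cxcl10.

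Markers of other liver cells were compared over the same arrays. Of 20 Kupffer cell and macrophage markers 19 were tested, and all 19 lay lower in KO livers, at a median difference of -0.87. Limma called 0 of the 19, and 13 were lower at an unadjusted p under 0.05, where 10.1% of all genes were. With KO 3 left out limma called 11 of the 19 lower, where 1.14% of all genes were. With any other single array left out it called 0 of the 19. KO 3 was the KO array highest in these markers, so leaving it out lowers the KO mean. Their mean level was 8.21, 8.61 and 9.40 on KO 1, KO 2 and KO 3, against 9.73, 9.75 and 9.63 on the WT arrays. As with the members, KO 1 was lowest and KO 3 nearest to WT. The endothelial and stellate cell lists below had the same order, so it was not particular to macrophage markers. Cd5l, a secreted protein of tissue macrophages, measured 10.76, 10.83 and 11.73 on the KO arrays, against 12.17, 12.21 and 11.99 on the WT arrays. Csf1r, the receptor macrophages need to survive, measured 11.21, 11.50 and 12.13 on the KO arrays, against 12.25, 12.29 and 12.37 on the WT arrays. The 20th marker, Itgam, lay below 4 on all arrays.

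Of 18 endothelial markers 16 were lower, with a median of -0.29 and list means of 8.31 to 8.72 in KO and 8.85 to 8.94 in WT. The 2 not lower, Clec4g and Fcgr2b, were the brightest of the list and differed by 0.07 and 0.06. Limma called 1 of the 18, Lyve1, which fell by 1.32 (adjusted p = 0.0353), where 0.150% of all genes were called lower. At an unadjusted p under 0.05, 7 of the 18 were lower, where 10.1% of all genes were. No endothelial marker was called lower without KO 1, without KO 2, without any 1 WT array, with no filter, with an ordinary two-sample test or with a replicate block. Of 11 tested stellate cell markers 10 were lower, with a median of -0.37, or -0.24 without WT 2. Their list means were 9.06 to 9.43 in KO and 9.42 to 9.91 in WT. Hepatocyte markers had a median of -0.01, with 7 lower and 7 higher, and list means of 14.93 to 15.09 in KO and 14.90 to 15.02 in WT. Lymphocyte markers were mostly not measured, with 11 of 16 below 4 on all arrays, among them Cd3e, Cd8a, Ncr1 and Cd79a. The 4 tested had list means of 4.44 to 4.64 in KO and 4.47 to 5.04 in WT, at a median difference of 0.03. Of these 4 only Ccl5 was lower. Cd4 and Cd79b differed by 0.06 and 0.22, and Prf1 had the tied value 4.28 on each array. Ccl5, shared by T cells and NK cells, measured 4.15, 4.55 and 4.55 on the KO arrays, against 5.25, 6.41 and 4.93 on the WT arrays, without overlap (difference -1.11; limma, adjusted p = 0.316).

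Dendritic cell markers were below 4 on all arrays for 7 of 9, among them Siglech of plasmacytoid cells. The 2 others, of which Bst2 is itself a member, had means of 8.22 to 8.57 in KO and 8.34 to 8.62 in WT. Neutrophil markers were below 4 on all arrays for 5 of 8, with list means of 4.58 to 5.62 in KO and 4.75 to 4.96 in WT for the 3 tested. The 18S rRNA controls measured 9.24, 9.11 and 8.50 on the KO arrays, against 8.24, 8.44 and 7.77 on the WT arrays. They were thus highest on KO 1 and KO 2, the arrays lowest in members. The signal of the pyruvate carboxylase control at its 3′ end minus that at its 5′ end, a measure of RNA integrity and labelling, was 3.58, 3.51 and 3.54 on the KO arrays, against 4.65, 3.99 and 4.85 on the WT arrays. This measure did not overlap between the groups. The part of either control in the members' differences was not tested.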

How the data were processed

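Expression was measured in liver RNA of 3 p14 KO and 3 WT mice. The authors deposited log2 values per probe set. The submitters' processing notes name GCRMA 2.16.0 and R 2.9.1. GCRMA corrects background from probe sequence and normalises across arrays, so differences of dim genes carry little information. The log2 scale was read from the values, which run from 2.18 to 16.33. Per the array annotation, 34945 of 45101 probe sets had 1 symbol, 932 several and 9160 none listed, besides 64 controls.

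Of 18193 genes, the 10009 that reached 4 (log2) on 3 or more of the 6 arrays were fitted in limma 3.58.1 under R 4.3.3, KO against WT, without covariates. The labels call the mice biological replicates. Precision is limited by how few arrays there are. The fit was tested on simulated data. The members and lists were chosen with earlier results of these data known, so lists are given by counts and medians only. Values by array are given for up to 3 members per role with the smallest p, and for those with separate groups. For the other lists they are given for Cxcl10, for called genes and for up to 2 genes with the smallest p. For markers, list means are given, with arrays for the brightest macrophage markers and Ccl5. Same-numbered KO and WT arrays did not deviate together (correlations of -0.086, -0.079 and -0.141 over genes), so the numbers were not taken as pairs. Promoter windows came from RefSeq (GRCm38.p6). Alternatives covered the filter, probe sets, normalisation, variance model, array weights, a replicate block and each array left out.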

Additional observations from a re-analysis of the deposited data

Results flagged for a closer look

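The further probe set of Xaf1 drew attention because the comparison by gene did not use it and its signal lay above the WT level. Its measured log2 means differed by 5.03 between KO and WT, opposite to the -2.33 of the probe set used, and it was as high on KO 3 (8.50) as on KO 1 (8.64). WT lay below the limit of 4 on 2 of 3 arrays, so the size is only a bound, at least 25.9-fold higher in KO, and the probe set passed the filter through its KO arrays and WT 3.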

How the results depend on the processing

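With each array left out in turn, the members' median lay between -0.50 and -0.17, the number lower between 32 and 36 of 37, the number called between 0 and 2 and the number of genes called between 1 and 140. Leaving out KO 3 gave the median of -0.50, the 140 genes and the 2 members called by limma, Trim30a (-1.46) and Xaf1 (-3.13). Leaving out KO 1 gave the median of -0.17. The difference of Lamtor2 lay between -1.23 and -1.17 and was no longer called without KO 2 or without any 1 WT array. With KO 3 and WT 2 both left out it was -1.20 and not called, and limma called 3 genes. With no filter limma called 3 genes, and with an ordinary two-sample test 3. Testing every probe set called 1 member probe set, of Xaf1, which passed the filter through KO. The replicate block left 0 genes called in limma (1235 at an unadjusted p under 0.05), with Lamtor2 at -1.19 not called. With equal groups the block cannot alter a difference, so it says nothing of the members' median. Signs turned for Dhx58, at 0.03 with median centring, 0.02 with quantile normalisation, 0.05 with KO 3 and WT 2 left out and 0.06 without WT 2 (-0.09 to 0.06 over the arrays left out in turn). They also turned for Irf9, at 0.01 without KO 1 (-0.39 to 0.01), and for Xaf1, at 1.35 with the mean of its probe sets. The cause was not tested. In 333 further combinations of the 19 named members with 18 settings, the direction and side of the threshold stayed as reported. With 3 arrays per group, differences of the size seen in most members are within the spread between mice.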
